A study of Rattus norvegicus with 36 samples.

Results

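The comparison described here sets 12 rat livers from the 2 lowest doses of PBDE47, 0.0485 and 0.485 mg/kg, together against 6 livers given the vehicle alone. These 18 arrays were chosen by their treatment labels out of 36 in the series, and no measured value entered the choice. Every rat in the comparison was a male Harlan Sprague Dawley animal, 7 weeks of age at the start, and the labels name no genetic modification. The dosed groups were gavaged with PBDE47 dissolved in corn oil once a day over 5 days, 6 livers at 0.0485 mg/kg and 6 at 0.485 mg/kg, and the 6 vehicle livers came from rats gavaged with the corn oil at 0 mg/kg. Livers were taken the day after the last dose, so the values describe a short exposure in young males. The question was whether liver transcripts differ from vehicle at the low end of the dose range, where the pooled group gives more precision than either dose alone.

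PBDE47 is a polybrominated diphenyl ether, one of a class of brominated flame retardants that persist in fat. In rodent liver, compounds of this class are known to activate the constitutive androstane receptor (CAR) and the pregnane X receptor (PXR), nuclear receptors that switch on cytochrome P450 genes of the 2B and 3A families, conjugating enzymes and export transporters. Chemicals of this kind are also studied for lower circulating thyroid hormone, which liver conjugation and export can remove, and the liver in turn reads thyroid hormone through genes such as Thrsp and Dio1.

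Values are log2 RMA values, 1 per probe set and array. A group level is a mean ± SD over 12 dosed or 6 vehicle livers, and a difference is the log2 difference of dosed minus vehicle with its standard error (SE) and, where given, its 95% interval, all from limma. The files hold no detection call, so a value under 5.31, the lowest array median, lies in a range where a difference is compressed. Among 14217 named genes, 4623 (32.5%) had a dosed or vehicle mean under that value.

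The labelled tissue was checked first through its own transcripts. The mean over 9 hepatocyte genes, among them albumin, ran from 14.1 to 14.2 in the dosed livers and from 14.1 to 14.2 in vehicle, and none of the 9 had an unadjusted p under 0.05. Correlation across probe sets between a dosed and a vehicle array ran from 0.9921 to 0.996, against 0.9929 to 0.9954 among vehicle arrays. The array of 0.0485 mg/kg replicate 2 stood apart on the second principal component and had the lowest mean correlation with the other arrays, 0.99321. The difference between the 3' and 5' control probe sets of actin ran from 1.04 to 1.28 in dosed livers and from 1.13 to 1.46 in vehicle livers. No 2 arrays held identical values. The labels describe each array as a liver sample without saying outright whether each came from a different animal, so each array was taken as 1 liver. The spread behind each SE and p was estimated from all 36 arrays in 6 groups, so it can differ from the SDs printed beside it.

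No probe set passed the test. At an adjusted p below 0.05 (limma, Benjamini-Hochberg), 0 of 31042 probe sets (0%) were called between the pooled doses and vehicle, and the lowest adjusted p was 0.666. At an unadjusted p under 0.05, 1597 probe sets (5.14%) differed, 848 higher (2.73%) and 749 lower (2.41%) in the dosed livers. Centring each array on its median turned that split to 1063 higher and 555 lower. Over genes with 1 probe set each, 860 of 14217 (6.05%) had an unadjusted p under 0.05, of which 498 (3.5%) were higher and 362 (2.55%) lower, and these shares are the background for every list below.

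Each dose alone gave the same count of calls. The comparison of 0.0485 mg/kg with vehicle had 0 calls (0%) by limma, with 1519 probe sets (4.89%) at an unadjusted p under 0.05 and a lowest adjusted p of 0.547. At 0.485 mg/kg against vehicle there were 0 calls (0%), with 1381 probe sets (4.45%) at an unadjusted p under 0.05 and a lowest adjusted p of 0.879. These comparisons share the 6 vehicle arrays with each other and with the pooled one, so their values are not independent. An F test for any difference among the 3 groups called 0 probe sets (0%) and had 1267 (4.08%) at an unadjusted p under 0.05. By the ordinary test without moderation, the pooled comparison had 0 calls and 1626 probe sets at an unadjusted p under 0.05.

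**Figure D1:**
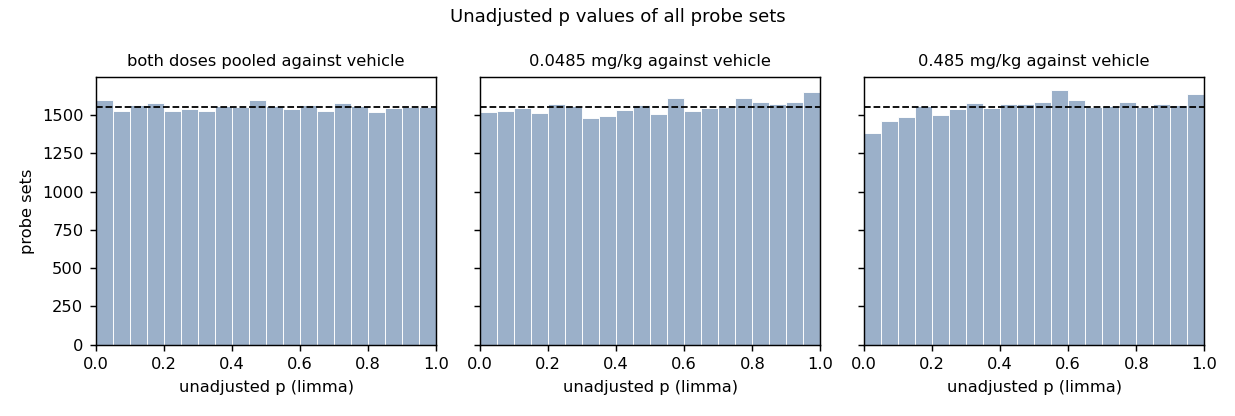
Number of probe sets (vertical axis) in each 0.05-wide bin of the unadjusted limma p (horizontal axis) for both doses pooled, 0.0485 mg/kg and 0.485 mg/kg, each against vehicle, and the dashed line marks an even share of 1552.1. In the pooled comparison the bins hold between 1516 and 1599 probe sets, and the bin nearest 0 holds 1597.

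The precision of the pooled comparison bounds how large a general difference in the measured values could be. The SE of a log2 difference had a median of 0.07 over all probe sets, and the median size of a difference was 0.049. The 95% interval lay within a 1.5-fold difference in either direction for 30585 probe sets (98.5%), and it reached 2-fold for 78. The median of the probe sets' mean levels was 5.35, close to the value of 5.31 under which a difference is compressed. Narrow intervals at such low levels bound the measured values and not expression itself. Estimated differences were over 1.5-fold for 36 probe sets, 15 higher and 21 lower, and over 2-fold for 5. A p that misses the threshold does not show that a gene was the same in both groups, and the intervals are per probe set, without adjustment for their number.

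A panel of 26 measured genes followed drug metabolism, thyroid and growth hormone response, bile acid, sterol and lipid metabolism, interferon response and matrix. It was chosen with results of these data known, so its counts describe and do not support. None of the 26 was called in the pooled comparison, and the lowest adjusted p by limma was 0.89, for Aldh1a1. At an unadjusted p under 0.05, 5 of 26 (19.2%) differed, against 6.05% of all genes. Of these, Aldh1a1, Gsta3, Abcc3 and Cyp7a1 were higher in dosed livers and Lox was lower. The median difference over the panel was 0.01, against 0.00 over all genes, and the 95% interval lay within 2-fold for 22 of 26.

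**Figure D2:**
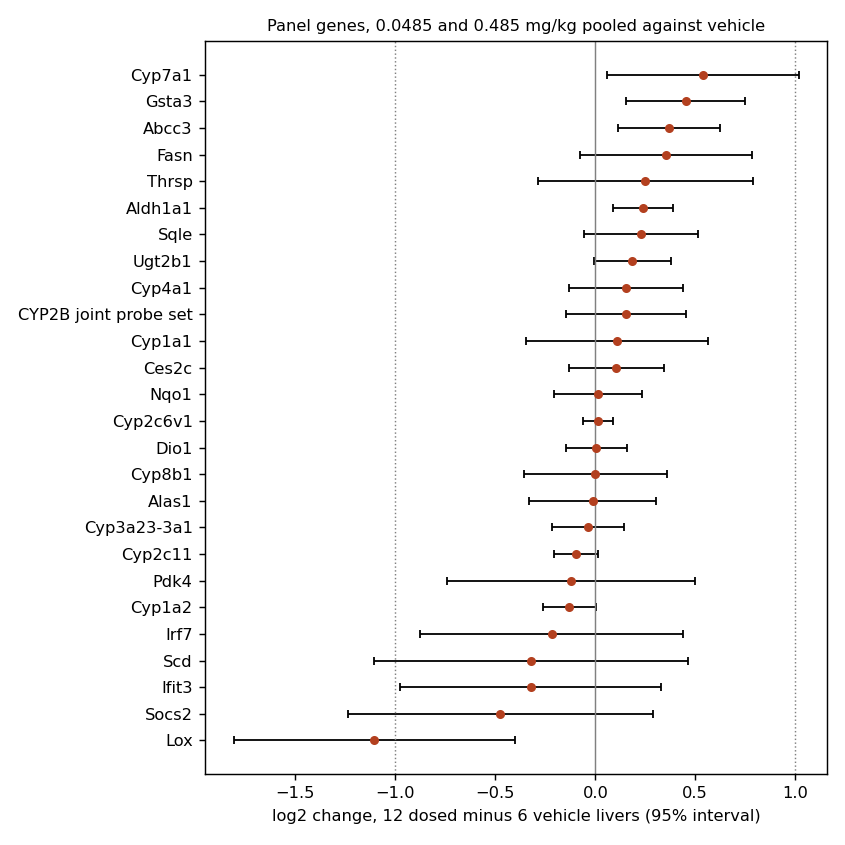
Log2 difference of 12 dosed minus 6 vehicle livers for each of the 26 panel genes (points) with its 95% interval from limma (bars), dotted lines marking 2-fold. Only the interval of Lox, at -1.81 to -0.40, lies wholly below 0, while those of Cyp7a1, Gsta3, Abcc3 and Aldh1a1 lie wholly above it.

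Probe set 1371076_at measures Cyp2b1 and Cyp2b2 jointly, the cytochrome P450 genes that CAR activation is best known for, and is called CYP2B here. It was at 10.41, 10.88 and 12.10 (lowest, median and highest) in the 12 dosed livers, and at 10.02, 10.90 and 11.19 in the 6 vehicle livers. Group levels were 10.95 ± 0.50 and 10.79 ± 0.41, a difference of 0.15 ± 0.15 SE with a 95% interval of -0.15 to 0.45 (adjusted p = 0.996 by limma). The ranges overlapped, and 2 dosed livers, both at 0.485 mg/kg, lay above the highest vehicle liver. Replicates 4 and 5 at 0.485 mg/kg had 12.10 and 11.65, while the 6 livers at 0.0485 mg/kg lay between 10.48 and 11.01. Vehicle replicate 3 was the lowest of all at 10.02, and without it the pooled difference was -0.0016.

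By dose, CYP2B averaged 10.70 ± 0.21 at 0.0485 mg/kg and 11.19 ± 0.60 at 0.485 mg/kg. The difference from vehicle was -0.09 ± 0.17 SE at the lower dose, with an unadjusted limma p of 0.589. At the higher dose it was 0.40 ± 0.17 SE, with an unadjusted p of 0.0247 and an adjusted p of 1. Between the doses, 0.485 minus 0.0485 mg/kg gave 0.49 ± 0.17 SE (adjusted p = 0.999 by limma), so pooling averaged values that lay on either side of vehicle.

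The 95% intervals of Cyp3a23-3a1, Cyp2c6v1, Ces2c and Ugt2b1 included 0. Cyp3a23-3a1, a 3A-family P450 and PXR target, was at 12.94 ± 0.21 in dosed and 12.98 ± 0.25 in vehicle livers, a difference of -0.04 ± 0.09 SE (95% interval -0.22 to 0.14). Cyp2c6v1, an abundant 2C-family P450, was at 14.01 ± 0.06 and 13.99 ± 0.05 in dosed and vehicle livers. Its difference of 0.01 ± 0.04 SE had a 95% interval of -0.06 to 0.09, the narrowest of the panel. Ces2c, a carboxylesterase, differed by 0.10 ± 0.12 SE, and Ugt2b1, a glucuronosyltransferase that conjugates steroids and drugs, by 0.18 ± 0.10 SE (adjusted p = 0.972 by limma).

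Abcc3 (1369698_at), a transporter that exports conjugates from hepatocytes into blood, was at 5.26, 5.70 and 6.05 (lowest, median and highest) in dosed livers and at 4.94, 5.28 and 5.63 in vehicle livers. Of 12 dosed livers, 8 lay above the highest vehicle liver and none below the lowest. The difference was 0.37 ± 0.13 SE, with a 95% interval of 0.11 to 0.63 (unadjusted p = 0.00626, adjusted p = 0.912 by limma). The vehicle mean of 5.27 was under the lowest array median. By dose the difference from vehicle was 0.30 ± 0.15 SE at 0.0485 mg/kg and 0.44 ± 0.15 SE at 0.485 mg/kg.

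Gsta3 (1371089_at), a glutathione transferase, showed the same arrangement, at 7.14, 7.58 and 8.15 in dosed livers and 6.71, 7.14 and 7.49 in vehicle livers. Here too 8 of 12 dosed livers were above the vehicle range. The difference was 0.45 ± 0.15 SE (95% interval 0.15 to 0.75, adjusted p = 0.912 by limma), with 0.48 ± 0.17 SE at 0.0485 mg/kg and 0.42 ± 0.17 SE at 0.485 mg/kg. Leaving out each of the 18 arrays in turn gave differences from 0.37 to 0.52.

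Aldh1a1 (1387022_at), which oxidizes retinal to retinoic acid, had the lowest p of the panel. It was at 11.77, 12.06 and 12.31 in dosed livers and at 11.49, 11.83 and 11.97 in vehicle livers, and 9 of 12 dosed livers exceeded the vehicle range. The difference was 0.24 ± 0.07 SE (unadjusted p = 0.0027, adjusted p = 0.89 by limma), a ratio of 1.18 on the linear scale. It was 0.26 ± 0.09 SE at 0.0485 mg/kg and 0.21 ± 0.09 SE at 0.485 mg/kg.

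In the list of CAR and PXR targets, 23 genes were measured and 0 were called. The list holds the receptor genes themselves (Nr1i3 for CAR and Nr1i2 for PXR) and leaves out the CYP2B probe set described above. The median difference of the 23 genes was 0.01, with 13 above and 10 below 0. The 4 with an unadjusted p under 0.05 (17.4%, against 6.05% of all genes) were all higher, namely Aldh1a1, Gsta3, Abcc3 and Cyp2a1, a testosterone hydroxylase of the 2A family, whose difference was 0.22 ± 0.09 SE. The array of 0.0485 mg/kg replicate 3 had the highest value of this list among the 6 livers of its dose, a median of 0.19 above the vehicle mean, against 0.00 to 0.07 in the other 5.

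**Figure D3:**
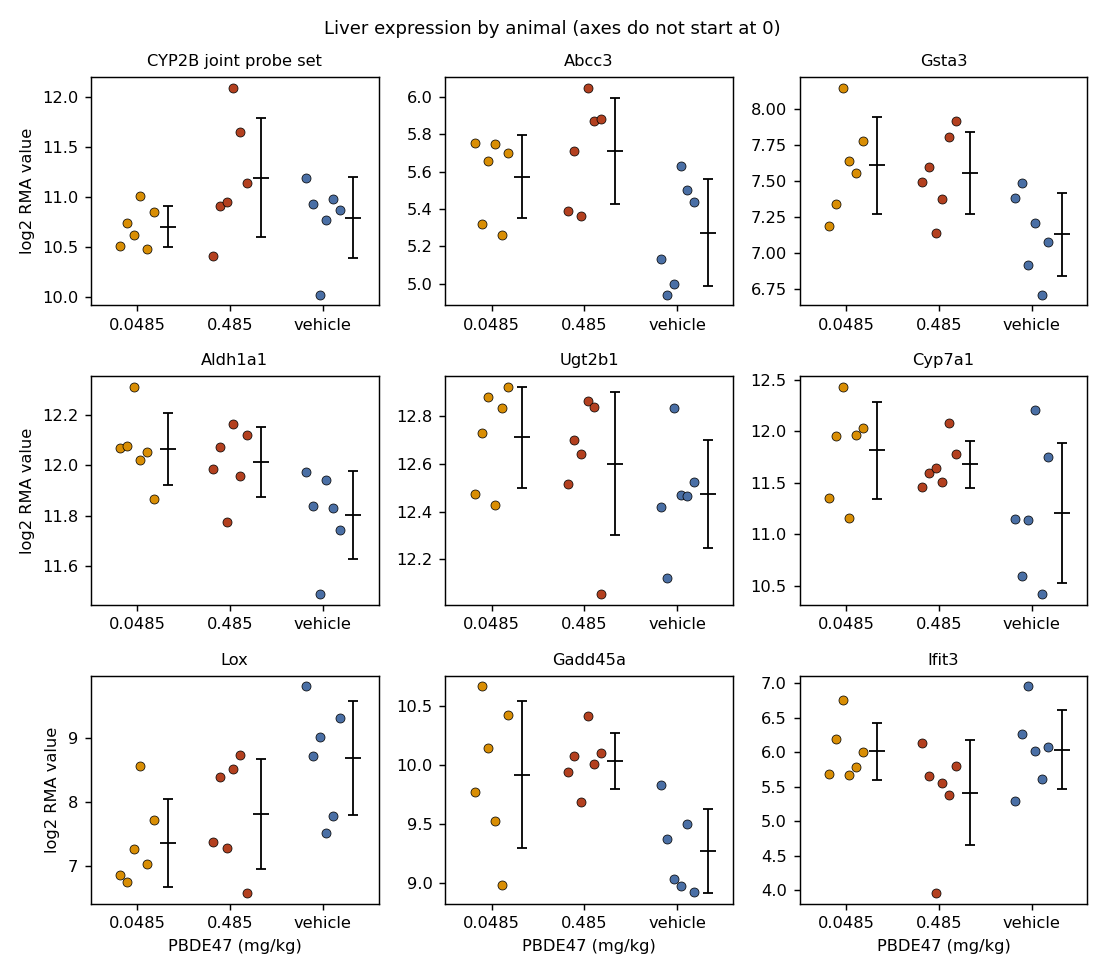
Log2 RMA value (vertical axes, not starting at 0) of 9 genes in each liver at 0.0485 mg/kg, 0.485 mg/kg and vehicle (6 points each), with mean ± SD beside the points. Dosed and vehicle livers overlap in every panel, with 9 of 12 dosed livers above the vehicle range for Aldh1a1, 8 of 12 for Abcc3 and Gsta3, and 7 of 12 below it for Lox.

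The same genes were measured at the next dose of the series. Against the 12 low-dose livers, which share no array with the 4.85 mg/kg group, 6 of the 26 panel genes were called at 4.85 mg/kg, beside 9 of 31042 probe sets (0.029%) in all. CYP2B was at 12.97 ± 0.16 at 4.85 mg/kg and 10.95 ± 0.50 in the pooled low-dose livers, a difference of 2.02 ± 0.15 SE (adjusted p = 3.53e-11 by limma). Differences for the other called genes were 0.69 for Abcc3, 0.64 for Ces2c, 0.58 for Ugt2b1, 0.49 for Cyp3a23-3a1 and 0.25 for Cyp2c6v1, with adjusted p between 0.00119 and 0.0191. Of these 6, Abcc3 alone had an unadjusted p under 0.05 in the pooled comparison with vehicle. Gsta3 and Aldh1a1 differed between 4.85 mg/kg and the low-dose livers by 0.29 ± 0.15 and 0.31 ± 0.07 SE and were not called (adjusted p = 0.762 and 0.193 by limma).

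No measured target of the aryl hydrocarbon receptor (AhR), which planar halogenated compounds activate, was higher at an unadjusted p under 0.05. Cyp1a1, the receptor's most inducible P450, was at 4.93 ± 0.36 in dosed and 4.82 ± 0.11 in vehicle livers, both under the lowest array median. Its difference was 0.11 ± 0.22 SE. Cyp1a2, a liver P450 that metabolizes caffeine, was at 13.15 ± 0.08 in dosed and 13.28 ± 0.19 in vehicle livers, a difference of -0.13 ± 0.07 SE (adjusted p = 0.972 by limma). The vehicle mean included replicate 5 at 13.65, above the other 5 vehicle livers at 13.10 to 13.26. Over 7 measured AhR targets the median was -0.01, and Aldh3a1, an aldehyde dehydrogenase, was the only member with an unadjusted p under 0.05, at -0.18 ± 0.06 SE and a level of 3.51 in dosed and 3.70 in vehicle livers.

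Genes of antioxidant defence under NRF2 and of glutathione synthesis had 22 measured members with a median of 0.02, and 2 (9.09%) with an unadjusted p under 0.05, Gsta3 and Gclc. Gclc, the catalytic subunit of the enzyme that limits glutathione synthesis, was at 9.76, 9.98 and 10.30 in dosed livers and 9.61, 9.78 and 9.84 in vehicle livers, with 10 of 12 dosed livers above the vehicle range. Its difference was 0.24 ± 0.09 SE (adjusted p = 0.912 by limma), and its second probe set gave 0.22 ± 0.08 SE. Nqo1, a quinone reductase and usual NRF2 marker, differed by 0.01 ± 0.11 SE with a 95% interval of -0.20 to 0.23. For this list, too, 0.0485 mg/kg replicate 3 was the highest of its dose, at 0.27 above the vehicle mean.

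Conjugation and heme genes stayed near the background. Of 16 genes of glucuronidation and sulfation, 1 (6.25%) had an unadjusted p under 0.05, the sulfotransferase Sult1b1 at 0.10 ± 0.05 SE. The sulfotransferase Sult2a6 differed by 0.33 ± 0.26 SE, with 8 dosed livers above and 2 below the vehicle range. Of 10 genes of heme synthesis and degradation, which supply and clear the cofactor of P450 enzymes, the synthesis enzyme Alad was the 1 with an unadjusted p under 0.05, at 0.11 ± 0.04 SE. Alas1, which starts heme synthesis and follows P450 induction, differed by -0.01 ± 0.16 SE, and Blvra, a biliverdin reductase, by 0.07 ± 0.07 SE.

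Thyroid hormone response was measured through 13 genes, none with an unadjusted p under 0.05, and a median difference of 0.00, whose sign flipped to -0.0023 when the arrays were quantile normalized again. Dio1, the deiodinase that thyroid hormone induces, was at 7.40 ± 0.16 in dosed and 7.39 ± 0.16 in vehicle livers, a difference of 0.00 ± 0.08 SE with a 95% interval of -0.15 to 0.16, and -0.0054 when quantile normalized again. Thrsp, a lipogenic gene named for its response to the hormone, ranged from 11.47 to 13.32 in dosed and from 10.75 to 13.24 in vehicle livers. Its difference of 0.25 ± 0.27 SE had a 95% interval of -0.29 to 0.79, so the spread between livers left this gene loosely bounded. Fgf21, a liver hormone, varied more widely still, with a difference of 0.50 ± 0.41 SE.

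Genes of growth hormone signalling and of the male pattern of liver expression numbered 16, with a median of -0.01 and 0 with an unadjusted p under 0.05. Cyp2c11, the dominant male-specific P450 of the rat, was at 13.67 ± 0.13 in dosed and 13.77 ± 0.08 in vehicle livers, and 5 of 12 dosed livers lay below the vehicle range. The difference was -0.10 ± 0.05 SE (adjusted p = 0.978 by limma). Socs2 and Cish, feedback inhibitors that growth hormone pulses induce, had wide intervals, at -0.47 ± 0.38 and 0.36 ± 0.44 SE.

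Bile acid synthesis and transport had 19 measured genes, a median of 0.01 (-0.0025 when quantile normalized again) and 1 gene (5.26%) with an unadjusted p under 0.05. That gene was Cyp7a1 (1368458_at), which sets the rate of bile acid synthesis from cholesterol, at 11.16, 11.71 and 12.43 in dosed livers and 10.42, 11.14 and 12.21 in vehicle livers. The groups overlapped, with 1 dosed liver above the vehicle range and none below it, and the difference was 0.54 ± 0.24 SE (adjusted p = 0.943 by limma). Cyp8b1, which makes cholic acid, differed by -0.00 ± 0.18 SE (0.0087 when arrays were centred on their medians), and Abcb4, the canalicular phospholipid exporter, by 0.15 ± 0.09 SE.

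Cholesterol synthesis and uptake was the list with the largest share of members at a low unadjusted p in the pooled comparison. Of 18 measured genes, 16 were above 0 and the median was 0.14, and 5 (27.8%, against 6.05% of all genes) had an unadjusted p under 0.05, all higher and none called. These were Fdft1 (squalene synthase) at 0.28 ± 0.09 SE, Msmo1 (a sterol oxidase) at 0.27 ± 0.11, Mvk (mevalonate kinase) at 0.23 ± 0.09, Fdps (farnesyl diphosphate synthase) at 0.23 ± 0.09 and Ebp (a sterol isomerase) at 0.14 ± 0.07. Fdft1 was at 10.42, 10.59 and 10.84 in dosed livers and at 10.07, 10.23 and 10.80 in vehicle livers, so the ranges overlapped and 2 dosed livers were above the vehicle range. By dose, the list's median was 0.10 at 0.0485 mg/kg, with 1 of 18 (5.56%) at an unadjusted p under 0.05, and 0.21 at 0.485 mg/kg, with 7 of 18 (38.9%). The shares of all genes in either direction were 5.75% and 4.9%. The single livers overlapped, with list medians from the vehicle mean of -0.27 to 0.34 in vehicle livers. They were -0.02 to 0.24 at 0.0485 mg/kg and 0.11 to 0.40 at 0.485 mg/kg. Sqle, the squalene epoxidase of this pathway, differed by 0.23 ± 0.14 SE and lay between 9.37 and 10.05 in dosed and between 8.86 and 10.18 in vehicle livers, so every dosed liver was inside the vehicle range. Genes of 1 pathway measured in the same livers are not independent observations.

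Among 20 genes of fatty acid synthesis the median was 0.09, and 1 (5%) had an unadjusted p under 0.05, Acly (ATP citrate lyase) at 0.41 ± 0.20 SE. By dose, 1 of 20 (5%) was higher at an unadjusted p under 0.05 at 0.0485 mg/kg and 4 of 20 (20%) at 0.485 mg/kg. The shares of all genes in either direction were 5.75% and 4.9%. Acly was 0.19 ± 0.23 SE from vehicle at 0.0485 mg/kg and 0.63 ± 0.23 SE at 0.485 mg/kg. Fasn (fatty acid synthase) gave 0.12 ± 0.24 and 0.59 ± 0.24 SE at the same doses, and Elovl6, a fatty acid elongase, 0.28 ± 0.30 and 0.67 ± 0.30 SE. Scd, the stearoyl-CoA desaturase, was -0.74 ± 0.45 SE at 0.0485 mg/kg and 0.10 ± 0.45 SE at 0.485 mg/kg, and its dosed livers spread from 9.27 to 11.56 against 9.35 to 11.90 in vehicle.

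PPARA targets and fatty acid oxidation had 23 measured genes, a median of 0.07 and 2 (8.7%) with an unadjusted p under 0.05, Hadhb, a subunit of mitochondrial trifunctional protein, at 0.13 ± 0.06 SE and the carnitine carrier Slc25a20 at 0.11 ± 0.05. By dose, 6 of 23 (26.1%) were higher at an unadjusted p under 0.05 at 0.0485 mg/kg and 0 of 23 at 0.485 mg/kg, against 5.75% and 4.9% of all genes in either direction. Cyp4a1, a fatty acid hydroxylase and classic PPARA target, differed by 0.15 ± 0.14 SE, Cpt1a, the gate of mitochondrial import, by -0.21 ± 0.15, and Pdk4, a kinase that restrains glucose oxidation, by -0.12 ± 0.31. The second probe set of Pdk4 had the opposite sign, at 0.07 ± 0.21 SE. Gluconeogenesis and fasting genes (12 measured, median 0.05) and urea cycle and amino acid catabolism genes (19 measured, median -0.02) shared the member Sds, serine dehydratase, at -0.58 ± 0.26 SE. Sds was at 6.03, 6.68 and 7.82 in dosed livers and 5.90, 7.56 and 8.39 in vehicle livers, so every dosed liver was inside the vehicle range, and without vehicle replicate 6 the difference was -0.36. Asl, argininosuccinate lyase, was the other urea cycle gene with an unadjusted p under 0.05, at 0.17 ± 0.07 SE. Irs2, an insulin signalling adaptor, differed by 0.31 ± 0.20 SE and Gpt, alanine aminotransferase, by -0.31 ± 0.16.

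The list of ER stress and amino acid response genes had 22 measured members, 18 of them above 0, a median of 0.09, and 6 (27.3%) with an unadjusted p under 0.05. Higher in dosed livers were Asns (asparagine synthetase) at 0.55 ± 0.22 SE, Psat1 and Phgdh (enzymes of serine synthesis) at 0.50 ± 0.19 and 0.49 ± 0.20, and the ER proteins Creld2 and Hsp90b1 at 0.14 ± 0.07 and 0.11 ± 0.05. Without vehicle replicate 1 the difference of Asns was 0.30 and the median of the list 0.05. Xbp1, a transcription factor of the unfolded protein response, was lower at -0.33 ± 0.15 SE. Psat1 was at 8.15, 8.62 and 9.21 in dosed livers and 7.32, 8.14 and 8.81 in vehicle livers, with 3 of 12 dosed livers above the vehicle range. None was called, and the lowest adjusted p of the list was 0.912 by limma.

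The list of p53 and growth arrest genes, not all of them p53 targets, had 10 measured members. Their median was 0.12 and 2 (20%) had an unadjusted p under 0.05, Gadd45a and Plk2. Gadd45a (1368947_at), a stress-inducible growth arrest gene, was at 8.99, 10.04 and 10.67 in dosed livers and 8.92, 9.20 and 9.83 in vehicle livers, and 8 of 12 dosed livers were above the vehicle range. Its difference of 0.71 ± 0.24 SE had a 95% interval of 0.22 to 1.19 (adjusted p = 0.912 by limma). It was 0.65 ± 0.27 SE at 0.0485 mg/kg and 0.76 ± 0.27 at 0.485 mg/kg. Plk2, a polo-like kinase, differed by 0.31 ± 0.11 SE, and Gadd45g, a relative of Gadd45a, by 0.94 ± 0.57 with levels from 6.89 to 10.21 in dosed and 6.77 to 9.45 in vehicle livers.

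Cell cycle genes (24 measured, median -0.05, and 0.001 without vehicle replicate 5) had 1 member higher and 1 lower at an unadjusted p under 0.05, the thymidylate synthase Tyms at 0.17 ± 0.08 SE and the cell cycle phosphatase Cdkn3 at -0.65 ± 0.27. Cdkn3 was at 5.59, 6.03 and 6.60 in dosed and 5.84, 6.79 and 7.63 in vehicle livers. The mitotic cyclin Ccnb2 differed by -0.39 ± 0.21 SE, and by -0.20 without vehicle replicate 5. Of 15 circadian clock genes none had an unadjusted p under 0.05, and the repressors Nfil3 and Bhlhe41 differed by 0.21 ± 0.18 and -0.20 ± 0.14 SE. Of 16 acute phase genes 1 (6.25%) did, Serpina3n, a serine protease inhibitor, at -0.14 ± 0.05 SE with 6 of 12 dosed livers below the vehicle range, and Lcn2, a secreted iron-siderophore binder, differed by -0.29 ± 0.32.

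Interferon-induced and antigen presentation genes, which respond to viral and inflammatory signals, had the lowest median of the pathway lists, -0.17 over 22 measured genes, with 19 below 0. Of these, 3 (13.6%) had an unadjusted p under 0.05 and all were lower, Rsad2 (viperin) at -0.56 ± 0.26 SE, the chemokine Cxcl10 at -0.47 ± 0.23 and Ifit1 at -0.19 ± 0.09. Without vehicle replicate 3 the difference of Rsad2 was -0.30, and that of Cxcl10 was -0.31 without the same array and -0.28 without vehicle replicate 2. The doses lay apart in this list, with a median of 0.06 at 0.0485 mg/kg and -0.33 at 0.485 mg/kg. At 0.0485 mg/kg, replicate 3 had a list median of 0.50 from the vehicle mean, and the others of that dose lay between -0.27 and 0.15. Single arrays also moved the pooled value, in which vehicle arrays take part. The pooled list median was -0.05 without vehicle replicate 2 and -0.07 without 0.485 mg/kg replicate 3, which had a list median of -1.11 from the vehicle mean. The mean of the 12 dosed livers was -0.16 with the array of 0.485 mg/kg replicate 3 and -0.07 without it, and the mean at 0.485 mg/kg was -0.35 with it and -0.20 without it.

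Members of the interferon list show the same liver. Ifit3, an interferon-induced antiviral gene, was at 5.67, 5.89 and 6.75 at 0.0485 mg/kg, 3.95, 5.60 and 6.13 at 0.485 mg/kg and 5.29, 6.04 and 6.96 in vehicle livers, and its lowest value was that of replicate 3. Irf7, the transcription factor that drives the interferon response, had 6.56 in this liver, against 7.82 to 8.57 in the other 5 livers at 0.485 mg/kg and 8.04 to 9.11 in vehicle. The pooled differences were -0.32 ± 0.32 SE for Ifit3 and -0.22 ± 0.32 for Irf7. The Kupffer cell and macrophage list was also lowest in that liver, at -0.57, and Ptprc (CD45, carried by leukocytes) was at 6.26 there, against 6.88 to 6.99 in the other 5. The part of such cells in the interferon values was not tested.

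**Figure D4:**
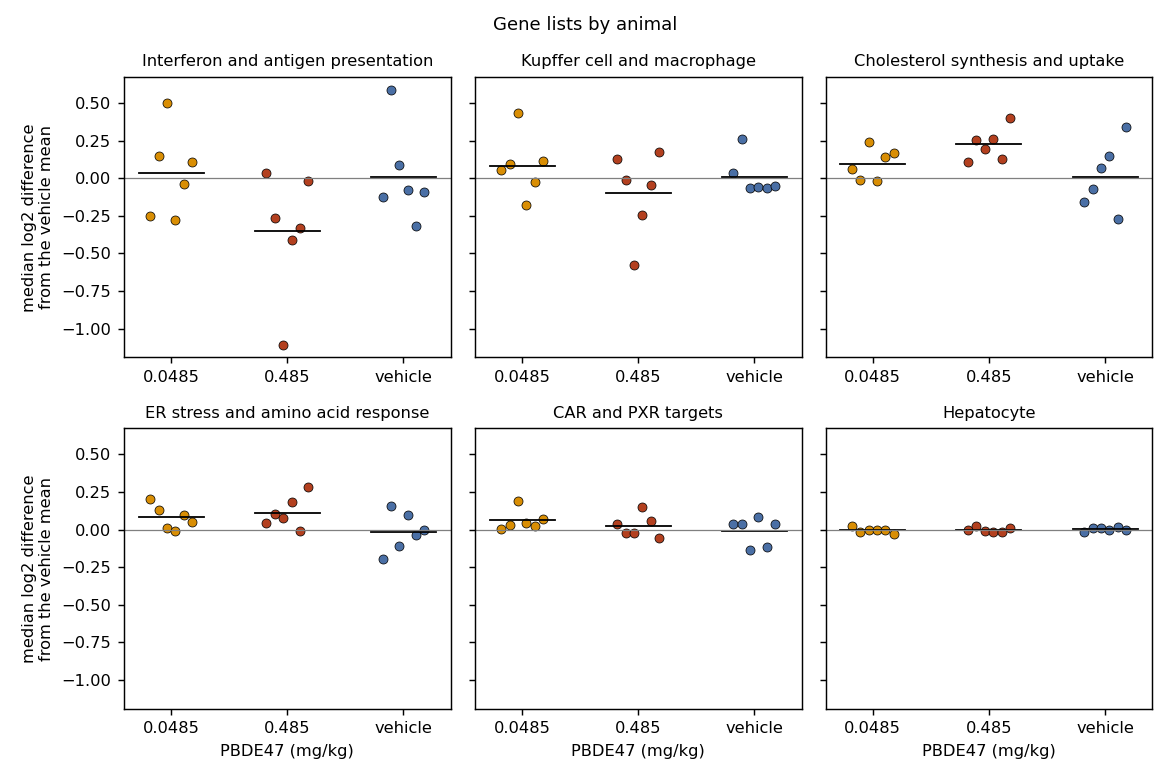
Median over a list's genes of the log2 difference from the vehicle mean (vertical axes) in each liver at 0.0485 mg/kg, 0.485 mg/kg and vehicle (6 points each, lines are group means). The liver of 0.485 mg/kg replicate 3 lies at -1.11 for interferon genes and -0.57 for Kupffer cell genes, and in every list shown the dosed and vehicle livers overlap.

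Markers of the other cells of the liver were set beside these values, and in bulk tissue fewer cells of a type and less RNA per cell cannot be told apart. None of 10 Kupffer cell genes had an unadjusted p under 0.05 and their median was -0.01, with Lyz2 (lysozyme) at -0.39 ± 0.22 SE and the lysosomal protein Cd68 at 0.07 ± 0.14. The doses lay on either side of vehicle. The list's median was 0.086 at 0.0485 mg/kg, with 9 of 10 above 0, and -0.085 at 0.485 mg/kg, with 9 of 10 below 0. Replicate 3 was the highest liver of the lower dose, at 0.43. Without replicate 3 at 0.485 mg/kg, the mean over the livers of that dose was 0.0002, against -0.0956 with it. Pooled medians were -0.07 over 11 T and NK cell genes, -0.03 over 3 B cell genes and -0.04 over 5 neutrophil genes, with none at an unadjusted p under 0.05. Cd8a and Ptprc differed by -0.17 ± 0.09 and -0.15 ± 0.15 SE (with a further Cd8a probe set at 0.06 and a further Ptprc probe set at -0.03), the B cell receptor subunit Cd79b and Ms4a1 (CD20) by -0.05 ± 0.09 and 0.04 ± 0.11, and S100a9 and Cxcr2 by -0.18 ± 0.18 and -0.05 ± 0.07. Mean levels were 5.29 to 5.60 in dosed and 5.32 to 5.68 in vehicle livers for the T and NK cell list, and 4.04 to 4.31 in dosed and 4.14 to 4.40 in vehicle livers for the neutrophil list, near or under the lowest array median.

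Sinusoidal endothelial genes (7 measured, median 0.07) had the scavenger receptor Stab1 at 0.21 ± 0.09 SE and its relative Stab2 at 0.13 ± 0.07. Cholangiocyte genes (6 measured, median -0.10) were all below 0, with Spp1 (osteopontin) at -0.22 ± 0.11 SE and Cftr, a chloride channel, at -0.16 ± 0.07 with levels of 3.30 in dosed and 3.46 in vehicle livers. In vehicle replicate 3 the cholangiocyte list lay 0.19 above the vehicle mean, and the other 5 vehicle livers lay between -0.15 and -0.02. The erythroid list (6 measured, median -0.13) had the globin genes Hbb and Hba-a3 at -0.19 ± 0.12 and -0.19 ± 0.13 SE.

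Zonation was checked through 9 periportal genes (median 0.01, and -0.0055 when quantile normalized again) and 7 pericentral genes (median -0.09). Apart from Sds, the 1 gene at an unadjusted p under 0.05 was Slc1a2, a pericentral glutamate transporter, at -0.24 ± 0.12 SE, and its second probe set had the opposite sign at 0.10 ± 0.06. Without vehicle replicate 1 the difference of Slc1a2 was -0.15. Hsd17b13, a lipid droplet protein, differed by 0.14 ± 0.07 SE, and Oat, ornithine aminotransferase, by -0.20 ± 0.16, with 0.0485 mg/kg replicate 1 at 9.76 below the other 5 livers of its dose. Among hepatocyte genes the largest differences were -0.09 ± 0.05 SE for the apolipoprotein Apoa1 and -0.08 ± 0.10 for the transcription factor Hnf4a.

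Lox (1368171_at), the lysyl oxidase that crosslinks collagen and elastin, had the largest difference of the panel. It was at 6.57, 7.33 and 8.74 (lowest, median and highest) in dosed livers and at 7.51, 8.87 and 9.82 in vehicle livers. The groups overlapped, but 7 of 12 dosed livers lay below the lowest vehicle liver. The difference was -1.11 ± 0.35 SE with a 95% interval of -1.81 to -0.40, a ratio of 0.465 (unadjusted p = 0.003, adjusted p = 0.912 by limma). Its second probe set (1368172_a_at) gave -1.08 ± 0.31 SE with an unadjusted p of 0.00116. By dose it was -1.33 ± 0.40 SE at 0.0485 mg/kg and -0.88 ± 0.40 at 0.485 mg/kg, so the lower dose was no nearer to vehicle. Leaving out each array in turn gave -1.34 to -0.88.

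The 12 stellate cell and fibroblast genes, which make the liver's matrix, had a median of -0.06 (0.0058 without vehicle replicate 5), and 3 (25%) had an unadjusted p under 0.05. Besides Lox these were the collagen gene Col1a1 at -0.38 ± 0.14 SE and, in the other direction, Lrat, which stores retinol as esters, at 0.22 ± 0.10. By dose, the list's median was -0.17 at 0.0485 mg/kg, with 9 of 12 below 0. It was 0.03 at 0.485 mg/kg, with 7 of 12 above 0. Lum (lumican), a matrix proteoglycan, spread from 3.68 to 7.94 in dosed and from 4.04 to 8.22 in vehicle livers, with a difference of -0.80 ± 0.53 SE. Its level at 0.0485 mg/kg was 5.14 ± 1.11, at 0.485 mg/kg 6.68 ± 1.26 and in vehicle 6.71 ± 1.57.

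The genes with the smallest p were mostly small differences with little spread. Top1mt (1380060_at), a mitochondrial topoisomerase, was at 7.53, 7.78 and 7.92 in dosed and 7.46, 7.54 and 7.57 in vehicle livers, with 11 of 12 dosed livers above the vehicle range. Its difference was 0.24 ± 0.05 SE, a ratio of 1.19 (unadjusted p = 5.48e-05, adjusted p = 0.666 by limma). Next among the higher genes came the sialidase Neu2 at 0.30 ± 0.07 SE, the opsin Opn3 at 0.30 ± 0.07, Aktip, an AKT-interacting protein, at 0.25 ± 0.06, and LOC102548205 at 0.27 ± 0.07. The second probe set of Aktip gave 0.06 ± 0.06 SE, and the levels of Opn3 (4.47 in dosed, 4.17 in vehicle) and LOC102548205 (3.19 in dosed, 2.92 in vehicle) were under the lowest array median.

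Among the lower genes, Epha6 (1385092_at), an ephrin receptor, was at 4.45, 4.70 and 4.86 in dosed and 4.76, 5.01 and 5.10 in vehicle livers, a difference of -0.30 ± 0.07 SE (unadjusted p = 9.02e-05, adjusted p = 0.666 by limma), also at a low level. Then came Neurl3, a ubiquitin ligase, at -0.26 ± 0.06 SE, Prkcd, a protein kinase C, at -0.21 ± 0.05, Zfp729b, a zinc finger gene, at -0.22 ± 0.06, and Hsf4, a heat shock factor, at -0.27 ± 0.07. Of the 12 dosed livers, 11 were below the vehicle range for Prkcd and Hsf4 and 10 for Epha6 and Zfp729b. The ratios of these 10 genes lay between 0.811 and 1.23.

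Dosed and vehicle livers did not overlap for 2 of 31042 probe sets (0.00644%), both higher in dosed livers, of which 1 is named. Among so many probe sets a count this small can arise by chance. Hirip3 (1371813_at), a histone chaperone, lay between 6.64 and 6.89 in all 12 dosed livers and between 6.54 and 6.62 in all 6 vehicle livers. The difference was 0.17 ± 0.06 SE (unadjusted p = 0.00485, adjusted p = 0.912 by limma), with 0.18 ± 0.07 at 0.0485 mg/kg and 0.17 ± 0.07 at 0.485 mg/kg. Group levels were 6.75 ± 0.08 in dosed livers and 6.57 ± 0.03 in vehicle livers.

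The 2 pooled doses were also compared with each other, which uses no vehicle array. No probe set was called (0 of 31042, 0%), 1030 (3.32%) had an unadjusted p under 0.05, and the lowest adjusted p was 0.923 by limma. The genes with the smallest p, as 0.485 minus 0.0485 mg/kg, were higher for Tmem121, a membrane protein, at 0.35 ± 0.09 SE, the cystatin Cst11 at 0.23 ± 0.07 and the sodium channel Scn7a at 0.27 ± 0.08. They were lower for the defensin Defb4 at -0.27 ± 0.08 SE, Tulp2, a tubby-like protein, at -0.29 ± 0.08, and Mccc1, a subunit of the leucine-degrading carboxylase, at -0.20 ± 0.06, each with an adjusted p of 0.999. Apart from Mccc1, at 8.65 ± 0.06 at 0.485 mg/kg and 8.84 ± 0.10 at 0.0485 mg/kg, all had levels under the lowest array median.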

How the data were processed

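Liver RNA was amplified with a 3' in vitro transcription kit and hybridized to Affymetrix rat arrays, per the labels' protocols. The authors deposited a log2 table with a value for each probe set on each array, made with RMA and affy per the submitters' processing notes, whose versions are not given in the sources used here. RMA sets all arrays to a shared distribution, so a value is relative to it. Arrays have no read depth, and precision depends on how many arrays a group has. The medians of the 36 arrays ran from 5.31 to 5.38. No batch or scan date was used here.

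The deposited table lists 31099 probe sets. Leaving out 57 Affymetrix controls, 31042 were tested without a filter. GEO's platform annotation gave 20826 of them a single gene, 436 several and 9780 none, and 20758 matched the RefSeq gene table of assembly GRCr8. A gene was represented by its probe set with the highest mean over 36 arrays. The test was a linear model with a mean for each of 6 groups over 36 arrays in limma 3.58.1 (R 4.3.3, lmFit and eBayes), two-sided, with 30 residual and 5.26 prior degrees of freedom, and its contrast was the mean of the 2 dose groups minus vehicle. Benjamini-Hochberg adjustment ran over all 31042 probe sets and calls were made at an adjusted p below 0.05. The series' design text names R/maanova, which was not used here. The procedure was tested on simulated data.

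The members, 30 gene lists and the panel were chosen with earlier results of these data known. The rule named the panel, the 5 higher and 5 lower genes with the smallest p, 3 in each direction between the doses, genes whose groups did not overlap, and the 2 largest differences in each list. Other list members are named only where they make up a count of members with an unadjusted p under 0.05, after their values were seen. Of the 28 genes listed for the panel, 26 were analysed here. Alternatives changed the arrays in the fit, the replicate block, scaling, filter, moderation, weights, probe set summary, and each array left out in turn. Of 18 correlations between same-numbered arrays of different groups, from -0.15 to 0.17, 3 were over 0.1, so the numbers were not taken as pairs.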

Additional observations from a re-analysis of the deposited data

Results flagged for a closer look

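Over 366 sets of 6 livers (each named gene or gene list in each group), 26 (7.1%) had a highest or lowest liver far from the rest, where chance gives about 1 in 20. No explanation is offered for them, and each is given with its log2 value and the range of the other 5 livers.

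Among drug metabolism and hormone genes, the CYP2B joint probe set was lowest in vehicle replicate 3 at 10.02 (others 10.77 to 11.19), Cyp1a2 was highest in vehicle replicate 5 at 13.65 (13.10 to 13.26), and Ces2c was highest in 0.485 mg/kg replicate 4 at 7.97 (7.52 to 7.62). Alas1 was highest in 0.0485 mg/kg replicate 3 at 10.86 (10.54 to 10.65), Dio1 lowest in 0.0485 mg/kg replicate 5 at 6.98 (7.35 to 7.41), Cyp2c11 lowest in 0.485 mg/kg replicate 6 at 13.37 (13.70 to 13.87), and Blvra lowest in vehicle replicate 3 at 7.74 (7.93 to 8.00).

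At 0.485 mg/kg, replicate 3 was lowest for Irf7 at 6.56 (7.82 to 8.57), Ifit3 at 3.95 (5.38 to 6.13), Ptprc at 6.26 (6.88 to 6.99) and S100a9 at 5.33 (5.85 to 5.96). Cxcl10 was lowest in replicate 4 of that dose at 5.25 (5.90 to 6.16). Replicate 6 of that dose was lowest for Prkcd at 6.60 (6.72 to 6.77), Mccc1 at 8.53 (8.66 to 8.68) and Gadd45g at 7.64 (8.98 to 9.46). In 0.0485 mg/kg replicate 3, Hsf4 was lowest at 4.88 (5.11 to 5.19), and Defb4 at 4.01 (3.51 to 3.63) and Ptprc at 7.36 (6.89 to 7.06) were highest. Oat was lowest in 0.0485 mg/kg replicate 1 at 9.76 (10.55 to 10.78), Cd68 was highest in vehicle replicate 2 at 8.81 (8.34 to 8.44), and S100a9 was highest in vehicle replicate 6 at 6.43 (5.98 to 6.08).

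Gene lists, as medians from the vehicle mean, were highest in 0.0485 mg/kg replicate 3 for CAR and PXR targets at 0.19 (0.00 to 0.07) and for NRF2 and glutathione at 0.27 (-0.03 to 0.03). The Kupffer cell list was highest in vehicle replicate 2 at 0.26 (-0.07 to 0.03) and the cholangiocyte list in vehicle replicate 3 at 0.19 (-0.15 to -0.02). The median of all genes was lowest in 0.485 mg/kg replicate 2 at -0.015 (-0.0007 to 0.01).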

How the results depend on the processing

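The count of 0 calls held for the pooled comparison, each dose against vehicle, the doses against each other and the F test, under each alternative and without each of the 18 arrays, and the lowest adjusted p by limma in any pooled fit was 0.116. A replicate block, which the pairing check did not bear out, gave 0 pooled calls and 1634 probe sets at an unadjusted p under 0.05. That number ran from 878 (averaging probe sets per gene, with fewer features tested) to 1749 (array quality weights), from 1418 to 1931 without an array, and was 962 after a filter kept 15521 brighter probe sets. At 4.85 mg/kg against the low-dose livers, 6 panel genes were called, 5 by the ordinary test. Of 890 gene values under other settings 887 kept their sign, and Alas1 turned to 0.0062 (array weights), Dio1 to -0.0054 (quantile normalization again) and Cyp8b1 to 0.0087 (median centring). The cause was not tested. Without an array, the ranges were -0.0016 to 0.2332 for CYP2B, -0.1019 to 0.0154 for Cyp3a23-3a1, -0.0463 to 0.0687 for Nqo1, -0.0812 to 0.0829 for Alas1, -0.0597 to 0.4382 for Thrsp, -0.0441 to 0.0405 for Dio1, -0.0542 to 0.0628 for Cyp8b1 and -0.3766 to 0.1121 for Pdk4. Of 840 list medians, 836 moved by less than the spread between vehicle livers. Leaving out an array can shift a group mean by only part of that spread, so this count does not show stability. The median of 14 of 30 lists turned its sign without an array, all with a median of at most 0.06 in size. Low signal limits genes under 5.31, and 6 vehicle livers limit all differences.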

Other observations

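Apart from Lox, 3 genes had an estimated difference over 2-fold between the pooled doses and vehicle, and they were picked out after their values were seen. Ubd, a ubiquitin-like gene that inflammatory cytokines induce, was at 4.87, 5.20 and 4.56 in replicates 3, 4 and 5 at 0.485 mg/kg, while the other 9 dosed livers lay between 8.32 and 9.36 and the 6 vehicle livers between 8.24 and 9.32. Its pooled difference of -1.01 ± 0.65 SE (unadjusted p = 0.128, adjusted p = 0.984 by limma) therefore describes no single liver. Serpinb9b, of a serpin family that inhibits granzymes, was at 8.28 ± 0.84 in dosed and 7.19 ± 0.52 in vehicle livers, a difference of 1.09 ± 0.32 SE (adjusted p = 0.841 by limma). It was at 8.66 at 0.0485 mg/kg and 7.90 at 0.485 mg/kg. Rec114, a meiotic recombination gene, was at 5.52 ± 0.96 in dosed and 6.65 ± 0.84 in vehicle livers, a difference of -1.13 ± 0.42 SE (adjusted p = 0.912 by limma), with 6.12 at 0.0485 mg/kg and 4.92 at 0.485 mg/kg. For Ubd the SD was 1.80 in dosed and 0.41 in vehicle livers, so the dosed spread was larger than the difference between groups. For Serpinb9b and Rec114 the SDs of both groups were smaller than the difference, and the ranges of dosed and vehicle livers overlapped.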
